A study of Mus musculus with 18 samples.

Results

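The 10 genes of ceramide and sphingomyelin metabolism described here were Sptlc1, Sptlc2, Cers2, Cers4, Cers5, Cers6, Degs1, Sgms1, Smpd3 and Sphk2, chosen by name among the 54532 genes of a table of liver mRNA levels. Of the 10 genes, 8 had a mean level of at least 1 FPKM (fragments for each kilobase of a gene's exons, divided by the size of the library) over all mice and were tested, among 10216 genes that passed this filter. Cers4 and Cers5 did not pass it. Smpd3 passed through the HFD and SZ-A groups, since its NC mean was 0.94 FPKM. Most of the 10 genes make ceramide or sphingomyelin, but Smpd3 breaks sphingomyelin down and Sphk2 uses the sphingosine that is released from ceramide.

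The study asked whether SZ-A, the alkaloids of Ramulus Mori (mulberry twig), acts on obesity and fatty liver in mice on a high-fat diet (HFD). Liver RNA was sequenced from 18 mice (C57BL/6 in the labels, male C57BL/6J in the methods, 6 weeks old at the start). The 6 NC mice received normal chow and no SZ-A, the 6 HFD mice a high-fat diet and no SZ-A, and the 6 SZ-A mice the same diet with SZ-A. The high-fat diet ran for 14 weeks before SZ-A was given on top of it, for 6 weeks in the methods and 8 weeks in the deposited text. The dose and route of SZ-A in the sequenced mice are not given in the sources used here. The diet label of NC6 names the high-fat diet, against the mouse's title. It was kept in NC, and the fits, ratios and correlations that involve NC were repeated without it, with the values given beside the called members and, for the rest, together further on. Fragments on genes ranged from 17163191 to 20493907 per mouse. The 7 hepatocyte markers analysed, among them Alb (albumin) and Apoa1 (the main protein of high-density lipoprotein), summed to 24100 to 57200 FPKM per mouse, so the tissue carried the markers of its label.

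Ceramide is built on the endoplasmic reticulum. Serine palmitoyltransferase joins serine to palmitoyl-CoA, a ketone group is reduced, a ceramide synthase adds a second fatty acid, and a desaturase puts in the double bond that turns dihydroceramide into ceramide. Sphingomyelin synthase then moves a phosphocholine head onto ceramide, sphingomyelinases take it off again, ceramidases release sphingosine, and sphingosine kinases phosphorylate it to sphingosine 1-phosphate. In liver the chain length of ceramides is set largely by which ceramide synthase is present, and ceramide accumulation has long been studied in steatosis and insulin resistance.

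Upstream sequence is shown for Sptlc2 and Cers6, the pair of members that were higher in every HFD mouse than in any NC mouse. Each line is the stretch of 250 bases before the gene's start in RefSeq (build GRCm38.p6), 5′ to 3′ on the gene's strand. The Sptlc2 stretch lies at chr12:87388356-87388605 on the minus strand and that of Cers6 at chr2:68861191-68861440 on the plus strand, each ending where the annotated gene begins. Capitals mark matches on either strand to the GC box GGGCGG (written CCGCCC on the other strand), the CCAAT box (read as ATTGG when it lies on that strand) and the palindromic E-box CACGTG, and no letter belongs to more than 1 match.
Sptlc2: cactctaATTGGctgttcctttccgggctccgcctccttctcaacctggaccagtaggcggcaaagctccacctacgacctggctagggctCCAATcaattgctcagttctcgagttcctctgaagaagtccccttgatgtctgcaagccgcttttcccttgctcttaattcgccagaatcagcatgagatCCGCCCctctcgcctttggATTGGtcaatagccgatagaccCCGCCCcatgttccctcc
Cers6: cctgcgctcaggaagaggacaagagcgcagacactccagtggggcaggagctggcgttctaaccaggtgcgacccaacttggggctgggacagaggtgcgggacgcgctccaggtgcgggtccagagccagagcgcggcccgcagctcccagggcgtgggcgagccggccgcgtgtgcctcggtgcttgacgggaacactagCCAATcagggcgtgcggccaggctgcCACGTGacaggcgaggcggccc
The Sptlc2 stretch held 3 CCAAT boxes and 2 GC boxes, and that of Cers6 held 1 CCAAT box and 1 E-box. Neither held the TATA box TATAAA or the sterol regulatory element TCACNCCAC. RefSeq start sites were matched for 9 of the 10 genes. These genes had 14 stretches in all, since some have several annotated starts (up to 4, for Sgms1). Of the 14 stretches, 9 held a GC box, 6 a CCAAT box and 3 (of Cers6, Cers2 and Degs1) an E-box. Over all 32851 stretches of this length the shares of stretches with a match were 32.7% for the GC box, 33.8% for the CCAAT box, 12.4% for the TATA box, 6.0% for the E-box and 1.1% for the sterol regulatory element. These are matches of letters and were not tested against binding.

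Because FPKM is divided by gene length, levels can be set side by side between genes, as far as the annotated length matches the transcripts in liver. That match was not tested. The length covers the annotated exon bases, 3676 for Cers2 and 8875 for Cers6. Cers2, which makes ceramides with very long acyl chains, was the most abundant member in all groups, with means of 56.4, 69.5 and 69.6 FPKM in NC, HFD and SZ-A mice. It made up 93.6% to 97.1% of the summed FPKM of the 6 ceramide synthases in single mice. Degs1, the dihydroceramide desaturase, came next (31.3, 24.2 and 24.3 FPKM), then Sphk2 (17.0, 12.2 and 12.4) and Sptlc1, the regulatory partner subunit of serine palmitoyltransferase (7.79, 7.26 and 7.18). These 4 were separated from each other and from the rest without overlap between mice in every group. Sptlc2, its catalytic subunit, followed at 2.54, 3.69 and 3.06 FPKM. From Sptlc2 downward through Sgms1, Cers6, Smpd3 and Cers5, neighbours in the order of means overlapped between mice in all groups, and Cers6 and Sgms1 changed places between NC and HFD mice. Cers4 was lowest, with means of 0.276, 0.282 and 0.238 FPKM, and did not overlap with Cers5 in any group.

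**Figure D1:**
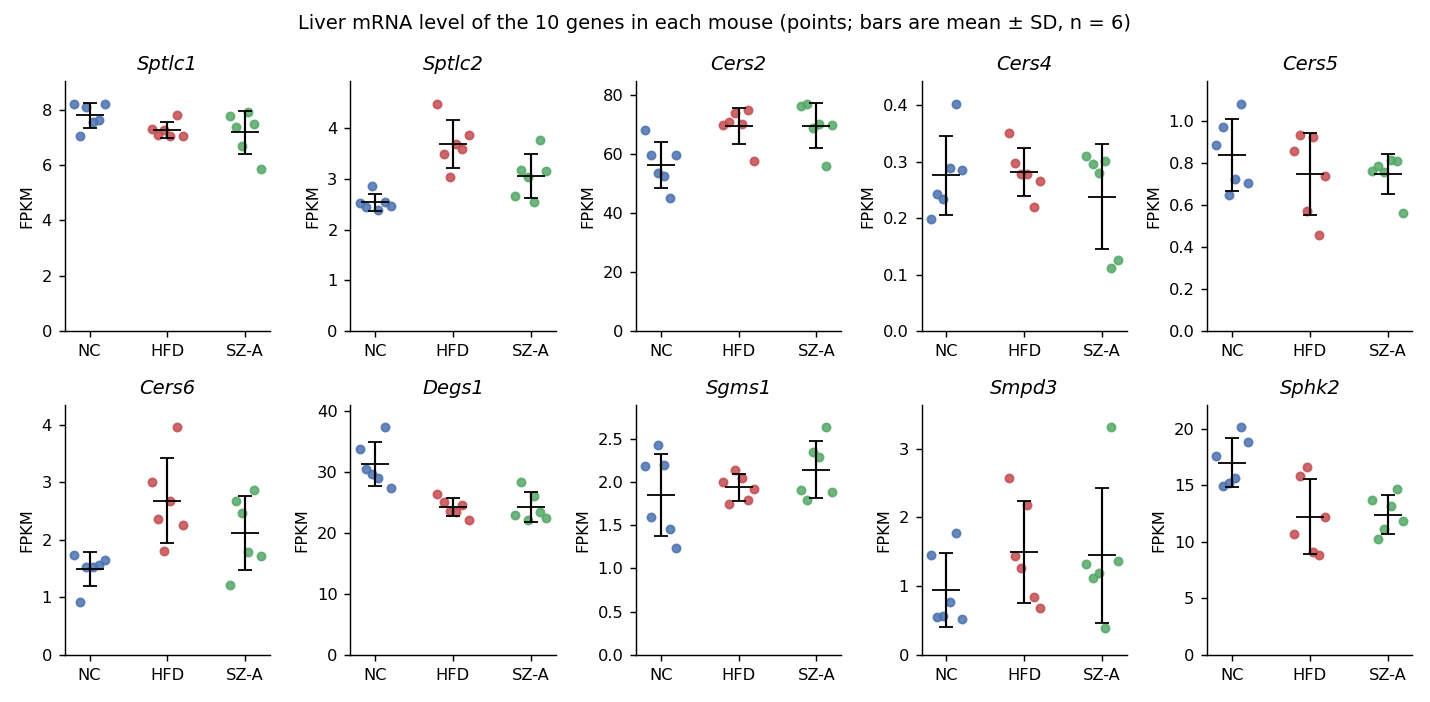
Liver mRNA level of each of the 10 genes in FPKM (vertical axis, from 0) by group (NC, HFD, SZ-A). Each point is 1 mouse, spread sideways only for visibility, and bars are mean ± SD (n = 6). All HFD mice lie above all NC mice for Sptlc2 (3.04 to 4.48 against 2.38 to 2.87) and Cers6, and below them for Degs1 (22.1 to 26.4 against 27.3 to 37.3).

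The members differed widely in how even they were between mice of a group. Sptlc1 had a coefficient of variation of 5.84%, 3.83% and 10.9% in NC, HFD and SZ-A mice, where its number of fragments alone would give 4.37% to 4.65%, so NC and HFD mice were about as even as counting allows. Smpd3, the neutral sphingomyelinase, had 57.2%, 49.5% and 67.4% against a counting error of 8.61% to 11.6%. Sgms1, the Golgi sphingomyelin synthase, was even in HFD mice (8.07%) and less so in NC mice (25.8%). Cers6 varied by 19.6%, 27.7% and 30.5%, with a counting error of 4.65% to 6.58%.

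The comparison of HFD with NC mice asks what the diet did to these genes. Genes for the catalytic serine palmitoyltransferase subunit and for the ceramide synthases Cers6 and Cers2 rose, and those for the desaturase and for sphingosine kinase 2 fell. A gene counted as called where its adjusted p (Benjamini-Hochberg) was below 0.05 and its fold change above 1.2. By limma, 5 of the 8 tested members were called, 3 higher and 2 lower. Over all 10216 genes tested 20.2% were called in this comparison, 10.7% higher and 9.49% lower in HFD mice. For 3 of the 8 members (Sptlc2, Cers6 and Degs1) the groups did not overlap, against 10.5% of all genes tested. The median log2 fold change of the 8 members was 0.20 and that of all genes -0.033. Since the members were chosen with earlier results of these data known, these shares and medians are a description. The difference from all genes was not tested. All log2 fold changes were fitted on log2(FPKM + 0.1), and the added 0.1 shrinks those of genes with few FPKM.

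**Figure D2:**
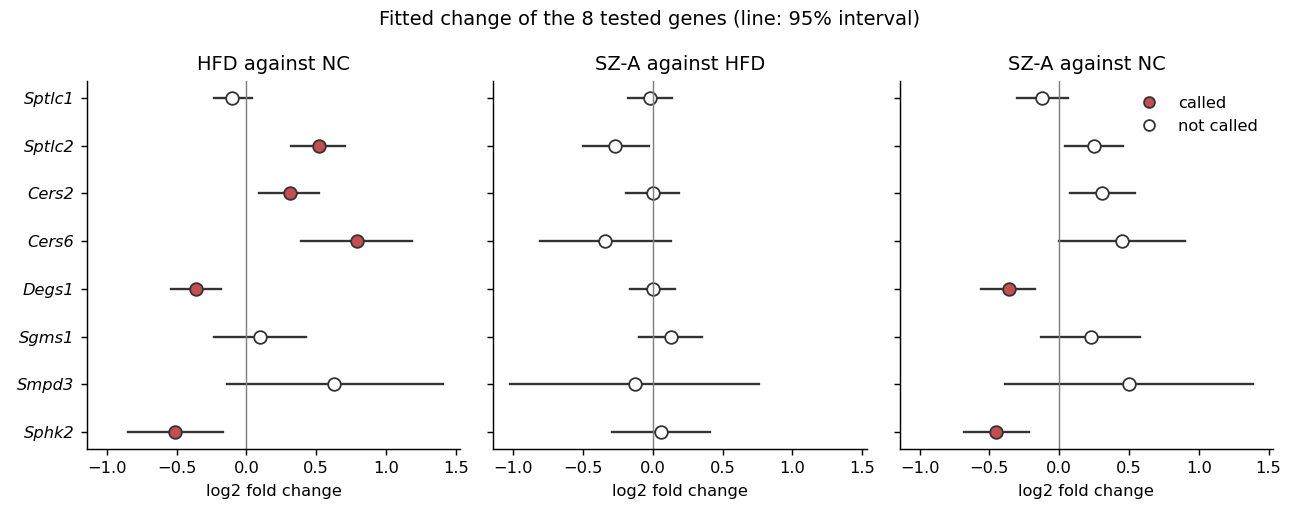
Fitted log2 fold change (horizontal axis) of the 8 tested members in the 3 comparisons, with lines for 95% intervals and filled points for called genes. In HFD against NC 5 points are filled, in SZ-A against HFD none is, and in SZ-A against NC Degs1 and Sphk2 are, at -0.36 and -0.45. NC, HFD and SZ-A mice each enter 2 of the panels.

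The catalytic serine palmitoyltransferase subunit rose while its partner subunit was not called. Sptlc2 (ENSMUSG00000021036, chromosome 12, 87305058 to 87388355, minus strand, GRCm38) had a lowest, median and highest level of 2.38, 2.49 and 2.87 FPKM in NC mice, of 3.04, 3.64 and 4.48 FPKM in HFD mice and of 2.54, 3.09 and 3.77 FPKM in SZ-A mice. Each of the 6 HFD mice lay above the highest NC mouse, and SZ-A mice spanned the gap between the groups. The log2 fold change of Sptlc2 for HFD against NC was 0.52 (standard error 0.09, adjusted p = 0.00194, limma), a 1.43-fold higher level. It was 0.51 without NC6 (adjusted p = 0.00441, limma). Sptlc1 (ENSMUSG00000021468, chromosome 13, 53332748 to 53377397, minus strand) ranged from 7.06 to 8.21 FPKM in NC mice with a median of 7.85, from 7.06 to 7.79 in HFD mice with a median of 7.19, and from 5.86 to 7.91 in SZ-A mice with a median of 7.43. These ranges lay on top of each other, with a log2 fold change of -0.10 for HFD against NC (95% interval -0.23 to 0.04, adjusted p = 0.285, limma). The ratio of Sptlc2 to Sptlc1 within a mouse does not depend on how mice are scaled to each other. It was 0.327 ± 0.0224 in NC mice, 0.509 ± 0.0687 in HFD mice and 0.432 ± 0.0868 with SZ-A (SD, n = 6 each). The highest NC ratio was 0.355 and the lowest HFD ratio 0.417, so the groups did not overlap, while the lowest SZ-A ratio of 0.321 lay inside the NC range.

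**Figure D3:**
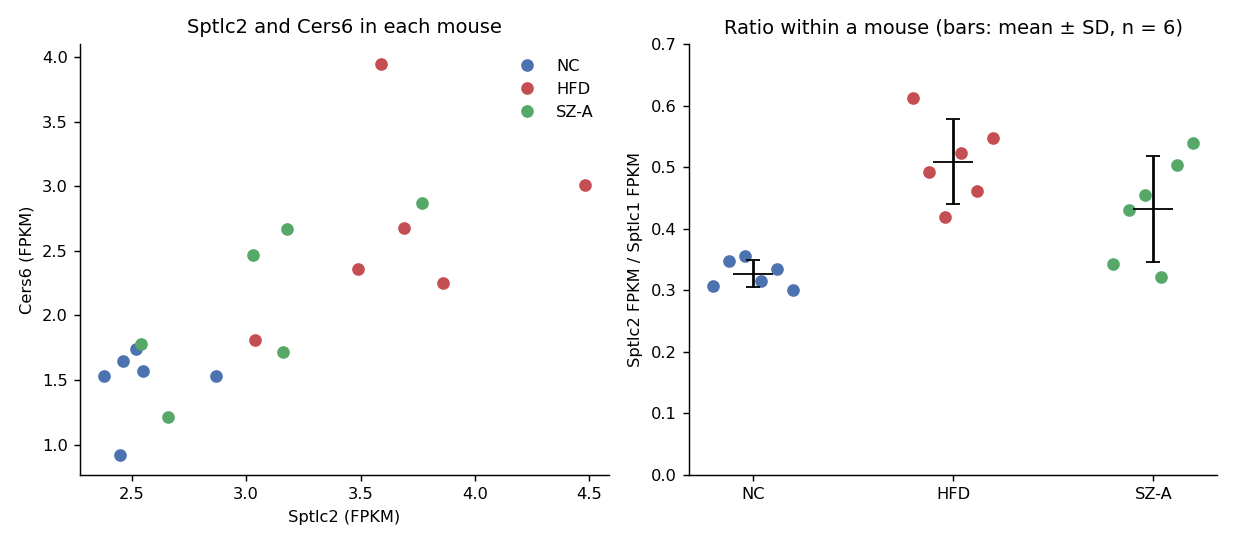
Left, Sptlc2 (horizontal axis) and Cers6 (vertical axis) in FPKM, 1 point per mouse, coloured by group. Right, the ratio of Sptlc2 to Sptlc1 in each mouse with mean ± SD (n = 6), where NC mice stop at 0.355 and HFD mice begin at 0.417, while SZ-A mice reach from 0.321 to 0.539.

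Of the ceramide synthases, the minor Cers6 had the larger relative change and the dominant Cers2 the smaller. Cers6 (ENSMUSG00000027035, chromosome 2, 68861441 to 69114282, plus strand), which makes palmitoyl-ceramide, had a lowest, median and highest level of 0.918, 1.55 and 1.74 FPKM in NC mice. In HFD mice these were 1.81, 2.52 and 3.95 FPKM and in SZ-A mice 1.21, 2.12 and 2.87 FPKM. HFD mice were all above NC mice, and SZ-A mice overlapped with both. The log2 fold change of Cers6 for HFD against NC was 0.79 (standard error 0.18, adjusted p = 0.00903, limma), or 1.73-fold. Without NC6 it was 0.82 (adjusted p = 0.0126, limma). In share of the summed FPKM of the 6 ceramide synthases, Cers6 took 2.56% ± 0.59 in NC, 3.65% ± 0.87 in HFD and 2.98% ± 1.12 of the SZ-A group (SD over 6 mice in each), and these shares overlapped between groups (1.49% to 3.26% in NC and 2.37% to 4.97% in HFD mice).

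Cers2 (ENSMUSG00000015714, chromosome 3, 95314791 to 95323599, plus strand) had a lowest, median and highest level of 45.1, 56.6 and 68.1 FPKM in NC mice, 57.5, 70.4 and 74.9 in HFD mice and 56.0, 69.8 and 77.0 in SZ-A mice. All 6 HFD mice were above the NC mean, but HFD6 lay inside the NC range. Cers2 rose by 1.24-fold in HFD mice (log2 fold change 0.31, standard error 0.10, adjusted p = 0.0457, limma). This call rested close to the threshold, since it was lost when any of 10 of the 12 mice was left out (NC2 to NC6 and HFD1 to HFD5, adjusted p up to 0.0886, limma). Without NC6 the adjusted p was 0.0529. Exons of Cers2 share 144 bases with 6330562C20Rik and 75 bases with Setdb1, both on the other strand, and the library kit did not mark strand.

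Cers5, a second synthase of palmitoyl-ceramide, and Cers4, which makes long-chain ceramides, were too low for the test. Cers5 (ENSMUSG00000023021, chromosome 15, 99734881 to 99772885, minus strand) rested on 30 to 76 fragments per mouse and ranged from 0.645 to 1.08 FPKM for NC, 0.457 to 0.934 for HFD and 0.560 to 0.812 for SZ-A mice, with medians of 0.804, 0.796 and 0.772. Cers4 (ENSMUSG00000008206, chromosome 8, 4493026 to 4531680, plus strand) ranged from 0.199 to 0.403 FPKM in NC mice, 0.220 to 0.351 in HFD mice and 0.112 to 0.311 in SZ-A mice, with medians of 0.264, 0.279 and 0.289. In SZ-A mice 4 values of Cers4 lay between 0.281 and 0.311 FPKM and those of SZ-A5 and SZ-A6 at 0.112 and 0.126. Cers4 shares 886 exon bases with Vmn2r-ps89 and 214 with Gm36956 on the other strand, both listed at 0 in every mouse. When all 27266 genes with any fragment were fitted, neither gene was called, with log2 fold changes for HFD against NC of -0.16 for Cers5 (95% interval -0.56 to 0.24) and 0.04 for Cers4 (-0.27 to 0.34). The ratio of Cers5 to Cers2 was 0.0152 ± 0.00462 in NC, 0.0109 ± 0.00313 in HFD and 0.0109 ± 0.00212 in the SZ-A group (SD over 6 mice in each). That of Cers6 to Cers2 was 0.0269 ± 0.00641, 0.0385 ± 0.00943 and 0.0313 ± 0.0122. Both ratios overlapped between all groups.

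The desaturase that completes ceramide fell. Degs1 (ENSMUSG00000038633, chromosome 1, 182275772 to 182282804, minus strand) had a lowest, median and highest level of 27.3, 30.1 and 37.3 FPKM in NC mice, 22.1, 24.1 and 26.4 in HFD mice and 22.1, 23.2 and 28.4 in SZ-A mice. HFD mice all lay below the lowest NC mouse, and of the SZ-A mice only SZ-A2 lay above it. The log2 fold change of Degs1 for HFD against NC was -0.36 (standard error 0.08, adjusted p = 0.00818, limma), and the fitted level fell by 22.2%. Without NC6, the lowest NC mouse, it was -0.40 (adjusted p = 0.00598, limma).

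The members that act at sphingomyelin, Sgms1 and Smpd3, were not called in the main fit. The acid sphingomyelinase Smpd1, which is not a member, was called and is given further on. Sgms1 (ENSMUSG00000040451, chromosome 19, 32122727 to 32389714, minus strand) had a lowest, median and highest level of 1.24, 1.89 and 2.43 FPKM in NC mice, 1.74, 1.96 and 2.14 in HFD mice and 1.79, 2.10 and 2.63 in SZ-A mice. The HFD values lay inside the NC range. Its log2 fold change for HFD against NC was 0.10 (95% interval -0.23 to 0.43, adjusted p = 0.687, limma) and -0.001 without NC6. Smpd3 (ENSMUSG00000031906, chromosome 8, 106252548 to 106337988, minus strand) ranged from 0.527 to 1.77 FPKM in NC mice (median 0.663), 0.690 to 2.57 in HFD mice (median 1.35) and 0.391 to 3.31 in SZ-A mice (median 1.26). Its estimate was as large as that of some called members, 0.63, but the interval ran from -0.14 to 1.41 (adjusted p = 0.23, limma). With sample weights, which give less weight to mice that deviate over all genes, Smpd3 had a log2 fold change of 1 and was called (adjusted p = 0.0227, limma), while the call of Sphk2 was lost in the same fit. The ratio of Sgms1 to Smpd3 was 2.46 ± 1.22 in NC, 1.59 ± 0.767 in HFD and 2.17 ± 1.85 in the SZ-A group (SD over 6 mice in each), and it overlapped between all groups. Smpd3 shares 247 exon bases with Prmt7 and Sgms1 shares 10 with 2700046G09Rik, both on the other strand.

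Sphk2, the kinase that makes sphingosine 1-phosphate in the nucleus and mitochondria, also fell. Sphk2 (ENSMUSG00000057342, chromosome 7, 45709467 to 45718002, minus strand) had a lowest, median and highest level of 14.9, 16.6 and 20.1 FPKM in NC mice, 8.87, 11.4 and 16.6 in HFD mice and 10.2, 12.5 and 14.7 in SZ-A mice. HFD2 and HFD3, at 15.8 and 16.6 FPKM, lay inside the NC range, and the other HFD mice lay below it. The log2 fold change of Sphk2 for HFD against NC was -0.51 (standard error 0.16, adjusted p = 0.0356, limma). It lost the call when any of 8 of the 12 mice was left out (NC1, NC4, NC5, NC6, HFD1, HFD4, HFD5 or HFD6, adjusted p up to 0.0772, limma), and without NC6 it was -0.48 (adjusted p = 0.0645, limma). With sample weights it was -0.38 and not called either (adjusted p = 0.0711, limma).

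Sphk2 shared the largest part of its exon bases with other genes of all members. Its last exon runs into Dbp, a clock-controlled transcription factor on the other strand, over 539 bases (13.0% of the Sphk2 exon bases), and its first exons share 373 bases (9.0%) with Rpl18, a ribosomal protein gene also on the other strand. Both genes were named for this overlap, after their values were seen. Dbp was 0.990 to 14.0 FPKM in NC mice, 18 to 31.7 in HFD mice and 7.22 to 47.1 in SZ-A mice. Its log2 fold change was 2.17 for HFD against NC (adjusted p = 0.00991, limma), the opposite direction to Sphk2, and the groups did not overlap. Rpl18 ranged from 44.6 to 65.9 FPKM in NC mice and from 32.9 to 46.6 in HFD mice (log2 fold change -0.45, adjusted p = 0.00873, limma). Over the 18 mice Pearson's r of Sphk2 with Dbp was -0.71, and -0.43 with the group means removed, and that with Rpl18 was 0.39 and -0.14. The libraries did not mark strand, so fragments in the shared bases cannot be assigned to 1 of the genes, and the part of the overlap in the Sphk2 values was not tested.

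**Figure D4:**
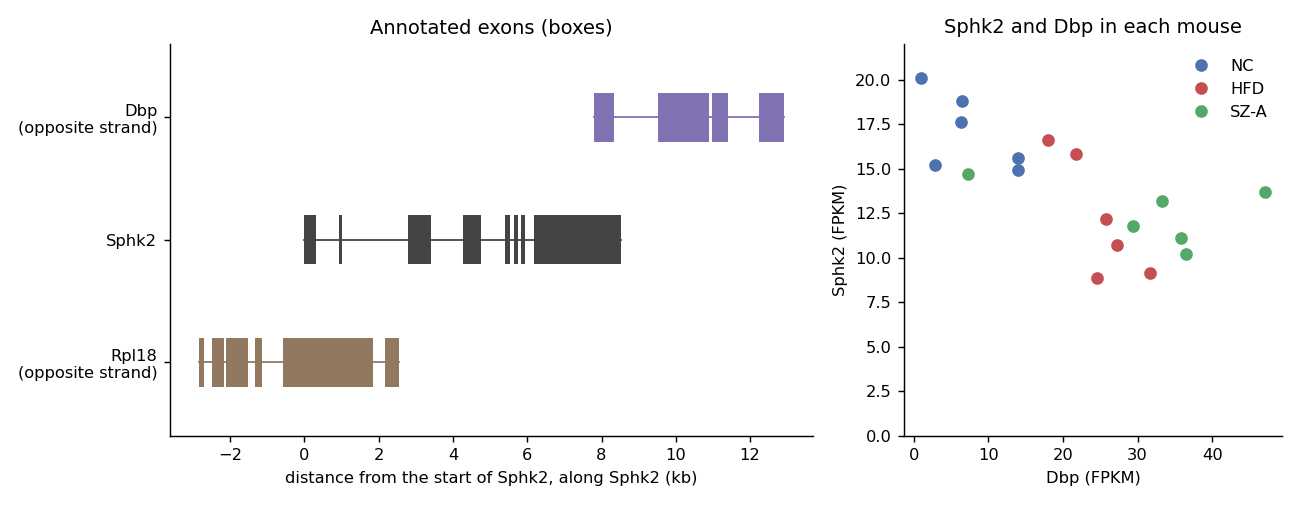
Left, annotated exons (boxes) of Sphk2 and of Dbp and Rpl18 on the other strand, by distance from the start of Sphk2 in kb along Sphk2. Right, Sphk2 against Dbp in FPKM, 1 point per mouse, where NC mice lie at 0.990 to 14.0 FPKM of Dbp and 14.9 to 20.1 of Sphk2, and the HFD mouse with most Dbp (31.7) had 9.12 of Sphk2.

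How mice are scaled to each other mattered for the members that fell. When every mouse was brought to the same summed FPKM, this moved the median log2 fold change of all genes for HFD against NC from -0.033 to 0.156, and a voom fit with plain library totals moved it to 0.122. After that rescaling Degs1 was at -0.17 (adjusted p = 0.151, limma) and Sphk2 at -0.32 (adjusted p = 0.189, limma), so neither was called, while Sptlc2 (0.70), Cers6 (0.97) and Cers2 (0.50) were. Relative to the median of all genes, Degs1 was at -0.33 and Sphk2 at -0.48 both as deposited and after the rescaling, and Sptlc2 at 0.55 and 0.54. The estimate of Sptlc1, which was not called, turned from -0.10 to 0.092. Not every scaling moved the calls. Median-ratio scaling sets the median ratio of genes to their mean over mice equal in every mouse. With it, and with voom on median-ratio library sizes, all 5 members kept their call, Degs1 and Sphk2 among them. The median of all genes was then -0.033 and -0.034.

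Markers of several cell types differed between HFD and NC mice as well. Of the 8 stellate cell markers 6 were called higher in HFD mice, among them Col1a1 (2.53 on the log2 scale) and Lrat (0.62), and their summed level ran from 42.8 to 60.6 FPKM for NC, 51.4 to 103 for HFD and 47.2 to 63.8 for SZ-A mice. Of 7 tested Kupffer cell and macrophage markers 3 were called higher (sums of 89.1 to 186, 142 to 262 and 164 to 198 FPKM), and of 3 tested neutrophil markers 2 were (1.02 to 5.64, 5 to 19.2 and 3.94 to 16.8). Of 7 hepatocyte markers 3 were called lower (Apoa1, Cps1 and Cyp3a11), with sums of 38000 to 57200 FPKM for NC, 24100 to 42200 for HFD and 30300 to 53500 for SZ-A mice. Of 7 endothelial markers 1 was called higher (Lyve1, not called without NC6 at an adjusted p of 0.0669, limma), with sums of 55.2 to 71.9, 61.6 to 78 and 64.3 to 70.3 FPKM. Of 2 tested adipocyte markers 1 was called higher (Cfd). The other, Cidec, was at -0.76 on the log2 scale and not called, and Adipoq, Plin1 and Lep did not pass the filter. Of 2 tested cholangiocyte markers none was called, and no T cell or B cell marker passed the filter. No marker of these lists was at 0 in every mouse. For each member and each of the 9 summed marker lists, 90 pairs in all, 14 pairs had a Pearson's r of at least 0.6 in size over the 18 mice or with group means removed. A summed FPKM mostly follows the most abundant markers of its list, such as Alb for hepatocytes, Dcn for stellate cells, and Cfd and Cidec for adipocytes. Sptlc2 had an r of 0.82 with the stellate markers (0.53 with group means removed), 0.82 with the neutrophil markers (0.55), -0.70 with the hepatocyte markers (-0.42), 0.61 with the endothelial markers (0.28) and 0.41 with the adipocyte markers (0.60). Degs1 had 0.77 with the hepatocyte markers (0.71), -0.74 with the Kupffer cell markers (-0.52) and -0.63 with the neutrophil markers (-0.01). Sphk2 had -0.72 with the endothelial markers (-0.60), and Cers6 had 0.62 with the stellate markers (0.23) and 0.61 with the neutrophil markers (0.17). Smpd3 had 0.60 with the neutrophil markers (0.56) and 0.38 with the adipocyte markers (0.60), and Cers2 had 0.55 with the B cell markers (0.77), whose sums were at most 2.07 FPKM. In bulk liver fewer cells of a type and less RNA per cell cannot be told apart, and the part of these cell types in the members' changes was not tested.

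The comparison of SZ-A with HFD mice asks what treatment did on the same diet. No member was called. With limma 0 of the 8 tested members passed, and voom gave 0 as well with either library size. An unadjusted limma p under 0.05 was found for 1 of the 8 (Sptlc2), beside 14.8% of all genes tested. Over all genes 0.147% were called in this comparison, 0.0783% higher and 0.0685% lower with SZ-A. That is 15 genes, a count that leaving out any of 10 of the 12 mice (all but HFD3 and HFD6) moved by more than 1.5 times, to between 2 and 49. It was 218 after the rescaling to a common sum, 233 with sample weights, 68 with voom on plain library totals and 0 with no filter or with the replicate number as a block. No member was called in any of these fits. At the same thresholds the paper reports more genes for this comparison, by DESeq2, a test that was not run here. The groups overlapped for all 8 members, against 1.28% of all genes tested whose groups did not overlap.

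The estimates of the members that the diet had raised differed in size. Sptlc2 was at -0.27 (95% interval -0.50 to -0.03, adjusted p = 0.267, limma), with 5 of 6 SZ-A mice below the HFD mean of 3.69 FPKM. Cers6 was at -0.34 (-0.81 to 0.13, adjusted p = 0.499, limma), also with 5 of 6 mice below the HFD mean. Cers2 was at 0.00, with an interval of -0.19 to 0.19. For both members that were lower on the diet the estimate was close to 0 as well. Degs1 was at 0.00 (-0.16 to 0.16) and Sphk2 at 0.06 (-0.29 to 0.41), and the sign of such small estimates turned with single mice and with the scaling. Sptlc1 was at -0.02 (-0.18 to 0.14), Sgms1 at 0.13 (-0.10 to 0.35) and Smpd3 at -0.13 (-1.02 to 0.76). As deposited, the intervals of Cers2, Degs1 and Sptlc1 thus reach at most 0.19 on the log2 scale in either direction. That of Smpd3 leaves room for a change of 1.02. After the rescaling to a common sum, Cers2 was at -0.177, Degs1 at -0.18 and Sptlc1 at -0.2, beside a median of all genes of -0.149.

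The comparison of SZ-A with NC mice shares its mice with both others and places the treated mice against chow. Degs1 and Sphk2 were called lower, and no member was called higher. This was 2 of 8 members, where 9.60% of all genes were called, 5.31% higher and 4.30% lower. The fitted level of Degs1 fell by 22.3% (log2 fold change -0.36, standard error 0.09, adjusted p = 0.0249, limma), and -0.40 without NC6 (adjusted p = 0.0206, limma). This call was lost without NC1, SZ-A1, SZ-A3 or SZ-A6 (adjusted p up to 0.0644, limma). Sphk2 was at -0.45 on the log2 scale (standard error 0.11, adjusted p = 0.0193, limma) and was the 1 member of 8 whose groups did not overlap, the highest SZ-A mouse being at 14.7 and the lowest NC mouse at 14.9 FPKM. Its call was lost without SZ-A3 (adjusted p = 0.0516, limma), with all 18 mice in one fit (adjusted p = 0.0527, limma) and with no filter on low values (adjusted p = 0.055, limma), and without NC6 it was -0.42 (adjusted p = 0.039, limma). Over all genes tested the groups did not overlap for 5.50%. Dbp was again in the opposite direction to Sphk2 (log2 fold change 2.34, adjusted p = 0.03, limma).

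Set side by side, the members raised by the diet had lower or equal estimates in SZ-A mice against NC. Sptlc2 was at 0.52 in HFD and 0.25 in SZ-A mice against NC (adjusted p = 0.124 for the second, limma), and Cers6 at 0.79 and 0.45 (adjusted p = 0.194, limma). Cers2 was at 0.31 in both, called in the first and not in the second (adjusted p = 0.0854, limma), where 5 of 25 alternatives called it (adjusted p from 0.0172 to 0.178, limma). Degs1 was at -0.36 in both. The pairs share the 6 NC mice, and the direct comparison of SZ-A with HFD above is the test of their difference.

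The 45 other genes of sphingolipid metabolism that were listed for comparison all had a row in the table, and 28 were tested. In HFD against NC 5 of the 28 were called, 4 higher and 1 lower, a share of 17.9% beside 20.2% of all genes, and their median log2 fold change was 0.16. The 4 genes that rose were Kdsr, Smpd1, Asah1 and Asah2. Others with like roles did not pass, among them the sphingomyelinases Smpd2 (0.24, adjusted p = 0.152, limma) and Smpd4 (-0.13, adjusted p = 0.482, limma) and the ceramidase Acer2 (0.10, adjusted p = 0.741, limma). Kdsr, which reduces the ketone that serine palmitoyltransferase makes, rose from 3.18 ± 0.428 to 4.04 ± 0.480 FPKM (SD over 6 mice in each group), which is 0.34 on the log2 scale (adjusted p = 0.0388, limma). Smpd1, the lysosomal acid sphingomyelinase, ranged from 10.2 to 12.1 FPKM in NC and from 12.3 to 16.4 FPKM in HFD mice and rose without overlap (0.37 on the log2 scale, adjusted p = 0.00537, limma). Asah1, the lysosomal acid ceramidase, ranged from 7.14 to 9.68 FPKM in NC and from 10.2 to 11.4 FPKM in HFD mice and also rose without overlap (0.28, adjusted p = 0.0228, limma). Asah2, the neutral ceramidase, rose from 4.24 ± 1.01 to 6.04 ± 0.658 FPKM (0.53, adjusted p = 0.0243, limma). Leaving out 1 mouse ended the call of Kdsr for 9 of the 12 mice (all but NC6, HFD3 and HFD6, adjusted p up to 0.0828, limma), that of Asah1 for NC5 or HFD1 (up to 0.0512, limma) and that of Asah2 for HFD2 or HFD4 (up to 0.0534, limma).

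Apom, the high-density lipoprotein protein that carries sphingosine 1-phosphate in plasma, was the 1 gene of the list that moved in both diet and treatment comparisons. Its lowest, median and highest levels were 161, 192 and 236 FPKM in NC mice, 91.6, 98.6 and 121 in HFD mice and 125, 180 and 200 in SZ-A mice. HFD mice lay below all mice of both other groups. The log2 fold change of Apom was -0.89 for HFD against NC (standard error 0.10, adjusted p = 0.000152, limma) and 0.74 for SZ-A against HFD (standard error 0.12, adjusted p = 0.0341, limma). The second of these was lost when any of 9 of the 12 mice was left out (all but HFD5, SZ-A2 and SZ-A5), with an adjusted p of up to 0.108 (limma). SZ-A and NC mice overlapped (-0.15, adjusted p = 0.484, limma). In SZ-A against HFD Apom was the 1 gene called among the 28, a share of 3.57% beside 0.147% of all genes. In SZ-A against NC the 1 gene called was Smpd1 (0.31, adjusted p = 0.0273, limma), again 3.57%, beside 9.60% of all genes. The call of Smpd1 was lost without NC1, NC3, NC4, SZ-A4 or SZ-A6.

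Around serine palmitoyltransferase, its small activating subunit Sptssa and its inhibitors of the Ormdl family were not called. Sptssa was at -0.27 for HFD against NC (adjusted p = 0.0525, limma), and the inhibitors Ormdl1, Ormdl2 and Ormdl3 at 0.23, 0.17 and 0.31 (adjusted p = 0.151, 0.412 and 0.0809, limma). Gltp, which moves glycolipids between membranes, had an estimate of 0.63 (adjusted p = 0.0638, limma) with levels of 1.26 to 4.75 FPKM in NC and 3.75 to 5.29 in HFD mice. Without NC6 it was at 0.79 and called (adjusted p = 0.0146, limma), and the groups no longer overlapped, since the next NC mouse was at 3 FPKM. It was also called after the rescaling, with voom on plain library totals, with sample weights and with all 18 mice in one fit (adjusted p from 0.0258 to 0.0367, limma). Cert1, which carries ceramide to the Golgi for sphingomyelin synthesis, was at -0.24 (adjusted p = 0.134, limma), and the other sphingomyelin synthase Sgms2 was at 0.04 (adjusted p = 0.862, limma). Sptlc3, Cers1, Cers3, Degs2 and Sphk1, paralogues of members, were below the filter.

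**Figure D5:**
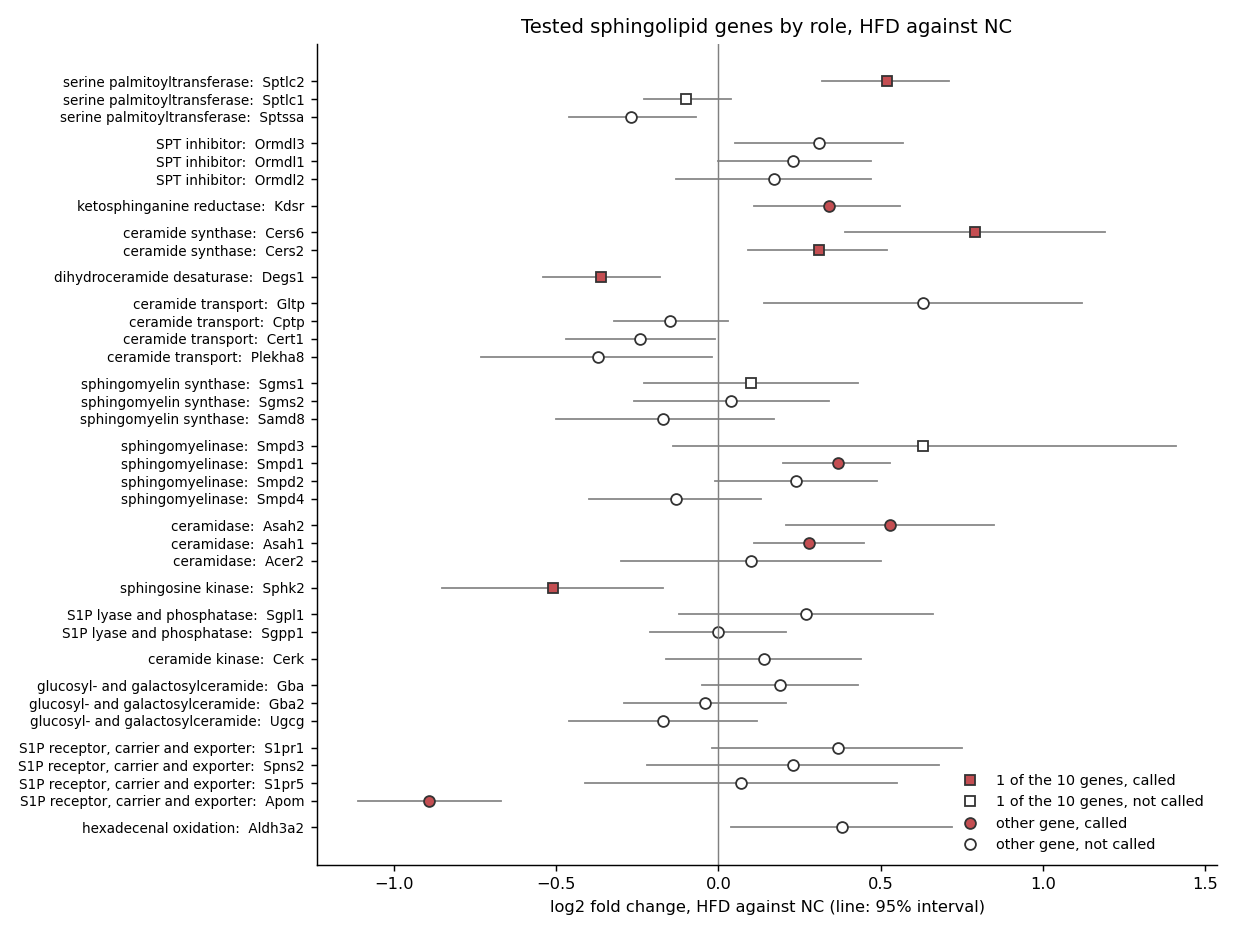
Fitted log2 fold change for HFD against NC (horizontal axis, lines for 95% intervals) of the tested genes by role, squares for the 8 tested members and circles for the other 28 genes, filled where called. Filled points right of 0 are Sptlc2, Kdsr, Cers6, Cers2, Smpd1, Asah1 and Asah2, and those left of 0 are Degs1, Sphk2 and Apom (-0.89).

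Without NC6, whose diet label is in doubt, 3 of the 8 members were called in HFD against NC (Sptlc2, Cers6 and Degs1), beside 19.8% of all genes, and for the same 3 the groups did not overlap, beside 13.3% of all genes. Sptlc1 was then at -0.08 (adjusted p = 0.41, limma), Smpd3 at 0.52 (adjusted p = 0.361, limma) and, in the fit with no filter, Cers5 at -0.20 and Cers4 at 0.05 (adjusted p = 0.619 and 0.926, limma). Of the 28 other pathway genes 6 were called, 5 higher and 1 lower. Kdsr was at 0.39, Smpd1 at 0.36, Asah1 at 0.31, Asah2 at 0.62 and Apom at -0.89 (adjusted p from 0.000393 to 0.0211, limma), all called as before, and Gltp joined them. Sptssa was at -0.28 and Ormdl1, Ormdl2 and Ormdl3 at 0.26, 0.18 and 0.34, with Cert1 at -0.21 and Sgms2 at 0.11, none of them called (adjusted p from 0.0658 to 0.61, limma). Dbp was at 2.22 and Rpl18 at -0.45, both called (adjusted p = 0.0153 and 0.0158, limma). Of the markers, the counts called for stellate cells, Kupffer cells, hepatocytes and adipocytes were as before, and all 3 tested neutrophil markers were called.

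In SZ-A against NC the 2 called members were Degs1 and Sphk2 also without NC6, beside 9.27% of all genes, and the groups then did not overlap for either, beside 7.46% of all genes. Sptlc2 was at 0.24, Cers2 at 0.33, Cers6 at 0.48, Sgms1 at 0.13, Smpd3 at 0.39 and Sptlc1 at -0.11, none of them called (adjusted p from 0.0963 to 0.661, limma). Smpd1 was at 0.30 (adjusted p = 0.0461, limma), Apom at -0.15 (adjusted p = 0.545, limma) and Dbp at 2.40 (adjusted p = 0.044, limma). Over the 5 NC mice left the ratio of Sptlc2 to Sptlc1 was 0.332 ± 0.0204, that of Cers6 to Cers2 0.0267 ± 0.00715, that of Cers5 to Cers2 0.0158 ± 0.00484 and that of Sgms1 to Smpd3 2.48 ± 1.36, and the share of Cers6 was 2.54% ± 0.66 (SD, n = 5). Smpd3 then had an NC mean of 1.02 FPKM, and the order of the members' NC means was the same. None of the correlations given over the 18 mice moved by more than 0.08 without NC6, and none of those with group means removed by more than 0.09.

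Among the members themselves, Sptlc2 and Cers6 went together most closely over the 18 mice, with a Pearson's r of log2 values of 0.79, and 0.56 once group means were removed. Sptlc2 and Smpd3 had 0.55 and 0.51, and Sptlc2 and Cers2 had 0.30 and -0.42. For the last pair the sign thus turned once group means were removed, and how far this rests on single mice was not tested. Degs1 with Sptlc2 had -0.55 over all mice and 0.06 within groups. These are descriptions over mice that share diets and libraries.

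Over all genes tested, those whose levels over the 18 mice were most like Sptlc2 were Col4a1, a basement membrane collagen, with a Pearson's r of 0.93 (0.87 with group means removed), Pkm, a pyruvate kinase, with 0.92 (0.73), and Arhgdib, expressed mainly in blood cells, with 0.91 (0.72). Those most like Cers6 were Fabp4, a fatty acid binding protein of adipocytes and macrophages (0.83 and 0.68), Fcgr3, an Fc receptor of myeloid cells (0.82 and 0.74), and Actb, a cytoskeletal actin (0.81 and 0.66). Degs1 was most like Sdhd, a subunit of succinate dehydrogenase (0.95 and 0.88), Ass1, a urea cycle enzyme (0.92 and 0.76), and Slco1a4, a hepatocyte anion transporter (0.92 and 0.77). These 3 members were the ones with the smallest p in HFD against NC.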

How the data were processed

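From the livers of 18 mice, poly-A libraries that do not mark strand were read from both ends over 150 bases. Per the submitters' processing notes and the methods, reads were aligned with HISAT2 2.0.5 to GRCm38 (mm10) and fragments counted with featureCounts 1.5.0-p3. The authors deposited 1 table of FPKM for 54532 genes, down to genes at 0. FPKM times gene length gave whole fragments for 100.0% of values (tolerance 0.05). Since FPKM is the deposited unit, the main test was limma on log values, voom on the recovered fragments was an alternative, and the authors' DESeq2 test was not run. The library size in the FPKM was that total times 0.9325 to 1.1414, so the values hold a scaling beyond library size. No pair of mice in a group was a duplicate (lowest chi-square per degree of freedom 17.08).

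Tests used R 4.3.3 and limma 3.58.1 (lmFit, eBayes with trend) on log2(FPKM + 0.1), for genes whose mean FPKM was 1 or more, with only the mice of the 2 groups in each fit. The fit was also run on simulated data with independent genes and the spread of the HFD mice in both groups. That run held no differences in scaling between mice, so it cannot vouch for the calls given here. P-values measure the spread between mice and were adjusted over all 10216 genes. The named genes are all members, the other pathway genes called in any comparison filled up to 8 by the smallest p in HFD against NC, 3 genes most like each of the 3 members with the smallest p, and markers beside a result. Dbp, Rpl18, Ormdl1, Ormdl2, Cert1, Sgms2 and the untested paralogues fall outside that rule. The members, the gene lists and the tests were chosen with earlier results of these data known. Alternatives were other pseudocounts, filters, scalings, limma options, voom on the fragments, a replicate block, other fold limits and each mouse left out. Python 3.11.15 with matplotlib 3.10.9 drew the figures.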

Additional observations from a re-analysis of the deposited data

Results flagged for a closer look

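Of 54 groups of 6 mice (18 genes in 3 groups), 7 had a highest or lowest mouse whose gap to its neighbour, as a share of the group's range, was above the critical value of Dixon's test, where chance gives about 1 in 20 groups. Sptlc1 in HFD5 was at 7.79 FPKM, with the next mouse at 7.31. Sptlc2 in NC3 was at 2.87 FPKM against 2.55 for the next, still below every HFD mouse. Cers2 in HFD6 was at 57.5 FPKM, the next lowest HFD mouse being at 69.7. Cers5 in SZ-A6 was at 0.56 FPKM, the next at 0.757. Cers6 in NC2 was at 0.918 FPKM, the next at 1.53. Smpd3 in SZ-A5 was at 3.31 FPKM, the next at 1.37. Gltp in HFD1 was at 5.29 FPKM, the next at 4.31. Among these 7, no mouse was the far one for more than 1 gene. Outside the 18 genes, SZ-A5 stood apart from the other SZ-A mice. It had the cholangiocyte marker Krt19 at 8.45 FPKM against 0.272 to 0.413, and Dbp at 7.22 against 29.4 to 47.1. Its neutrophil markers S100a8 (6.1) and S100a9 (9.21) were also the highest of the group. The part of this mouse in the correlations of Smpd3 was not tested.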

How the results depend on the processing

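The 5 members called in HFD against NC became 0 with a fold change over 2, and 3 with no filter, with a mean FPKM of at least 5, with FPKM rescaled to a common sum, with voom on plain library totals and with the replicate block. Leaving out 1 mouse gave 3 to 4. At the fold limit of 1.2 Sptlc2 and Cers6 kept their call in all 24 alternatives that fitted them. With sample weights the count stayed at 5, with Smpd3 called in place of Sphk2. In SZ-A against HFD no alternative called a member. In SZ-A against NC the 2 members became 0 with a fold change over 2 or with no filter, and 0 (without SZ-A3) to 3 (without SZ-A5) when 1 mouse was left out. With all 18 mice in one fit Cers2 took the place of Sphk2, and with the block or without NC1 that of Degs1. The count of other pathway genes in HFD against NC (5) was 0 with a fold change over 2, 11 after the rescaling and with voom on plain totals, 9 with sample weights, 3 with the block and 3 to 7 without 1 mouse. In SZ-A against HFD (1) it was 0 with a fold change over 2, no filter or the block, 2 after the rescaling and 0 to 1 without 1 mouse. In SZ-A against NC (1) it was 0 with a fold change over 2, 3 with sample weights and 0 to 2 without 1 mouse.

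Of 1182 refitted log2 fold changes 1055 kept sign and call, 72 lost a call, 18 gained one and 37 turned sign, none of them of a called gene. In HFD against NC these were Sptlc1, at 0.092 after the rescaling and 0.056 with voom on plain totals, and Sgms1, at -0.001 to 0.18 without 1 mouse. In SZ-A against HFD the rescaling gave -0.177 for Cers2, -0.044 for Sgms1, -0.117 for Sphk2, -0.126 for Sptssa and -0.153 for Ormdl3. Voom on plain totals gave -0.113 for Cers2, -0.053 for Sphk2, -0.061 for Sptssa and -0.088 for Ormdl3. Degs1 was at 0.002 with median-ratio scaling and with voom on median-ratio sizes, and Sphk2 at -0.039 with sample weights. Without 1 mouse the ranges were -0.05 to 0.033 for Sptlc1, -0.053 to 0.06 for Cers2, -0.05 to 0.024 for Degs1, -0.40 to 0.157 for Smpd3, -0.023 to 0.16 for Sphk2, -0.011 to 0.10 for Sptssa and -0.032 to 0.06 for Ormdl3. The rescaling and plain totals move all genes together, and for the other changes the cause was not tested.

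The replicate numbers did not pair the mice (correlations of same-numbered deviations from -0.12 to 0.29 over 18 pairs). With the number as a block Cers2 (adjusted p = 0.101) and Sphk2 (0.0821) lost their limma call in HFD against NC, and in SZ-A against NC Degs1 lost it (0.0502) and Cers2 gained it (0.0335). Of the other pathway genes, Kdsr and Asah1 in HFD against NC and Apom in SZ-A against HFD lost theirs. Of the markers, Adgre1 and Cd5l lost theirs and Retnlg gained one in HFD against NC, Cd68 lost its call in SZ-A against HFD, and in SZ-A against NC Col3a1, Rgs5 and Sox9 lost theirs and Clec4f gained one. No other call of a member, listed pathway gene, marker or gene sharing exon bases with a member changed under the block. Few fragments limit Cers4 and Cers5 most, and their intervals cover the spread between mice.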
